A study of Mus musculus with 118 samples.

Results

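The Tfap2 genes are the 5 mouse genes for the AP-2 transcription factors, Tfap2a, Tfap2b, Tfap2c, Tfap2d and Tfap2e. They were taken by name from the RefSeq annotation and are 5 of 26180 genes with a curated transcription start site (TSS). Their promoters, defined as a curated TSS plus or minus 2500 bp, and their gene bodies were compared with the RING1B, SUZ12 and PCGF2 peaks of untreated mouse embryonic stem cells (ESCs). The series used here holds 118 calibrated ChIP-seq (cChIP-seq) and Input samples in 42 groups, in which human HEK293T or fly chromatin was added as an internal standard, and asks what the catalytic activity of PRC1 does for Polycomb binding and gene repression. The files hold 3 lists of peak positions, so the comparison made here is where each factor was found at these genes, and not how binding changed on tamoxifen (OHT) treatment.

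The untreated groups behind the lists were RING1B, SUZ12 and PCGF2 in the PRC1CPM line (n = 3 each) and SUZ12 in the PRC1CKO line (n = 3). PRC1CPM is clone 41 of E14 ESCs and carries Ring1aI50A/D53K, a catalytically inactive RING1A, together with the switchable allele Ring1b(WT->I53A/D56K)fl/fl and Rosa26::ERT2-Cre, a Cre that acts only once OHT is given. PRC1CKO is clone B9 of E14 ESCs and combines Ring1a-/- with Ring1bfl/fl and the same Rosa26::ERT2-Cre. Each line is therefore 1 clone, and no untreated cell used here had an active RING1A, so RING1B was the only active catalytic subunit of PRC1 in both. RING1B data from PRC1CKO cells also went into the RING1B list but are not analysed here. The lists hold no expression values, so the ESC identity of the cells was not checked against marker genes.

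AP-2 proteins bind GC-rich DNA as dimers and drive genes of the early ectoderm, neural crest, trophoblast and germ line. Polycomb complexes keep such developmental regulators silent in ESCs. PRC1, built on RING1A or RING1B, ubiquitylates histone H2A, and PRC2, of which SUZ12 is a core subunit, methylates histone H3 at lysine K27. PCGF2 marks the canonical form of PRC1, which reads the PRC2 mark through a CBX protein. All of these complexes are found mainly at CpG islands, stretches of DNA in which CpG dinucleotides have not been lost.

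DNA from inside the Tfap2 domains is shown first, because CpG content varied widely between positions that carried the same 3 factors. Each sequence is given 5′ to 3′ on the strand of its gene, in lower case with CpG dinucleotides in capitals, and every base of it lay inside a RING1B, a SUZ12 and a PCGF2 peak. The promoter sequences are the 250 bases before a TSS in RefSeq (GRCm38.p6), where 7 of 11 Tfap2 TSSs, from 4 of 5 genes, could be matched and Tfap2c could not. The promoters are Tfap2a (chr13:40734921-40735170, minus strand), Tfap2b (chr1:19211804-19212053, plus strand), Tfap2d (chr1:19102772-19103021, plus strand) and Tfap2e (chr4:126736270-126736519, minus strand).
Tfap2a promoter: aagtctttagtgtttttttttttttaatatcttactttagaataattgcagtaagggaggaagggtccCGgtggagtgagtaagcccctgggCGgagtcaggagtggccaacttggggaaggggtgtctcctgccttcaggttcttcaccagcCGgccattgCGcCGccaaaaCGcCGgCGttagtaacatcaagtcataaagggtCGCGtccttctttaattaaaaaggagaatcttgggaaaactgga
Tfap2b promoter: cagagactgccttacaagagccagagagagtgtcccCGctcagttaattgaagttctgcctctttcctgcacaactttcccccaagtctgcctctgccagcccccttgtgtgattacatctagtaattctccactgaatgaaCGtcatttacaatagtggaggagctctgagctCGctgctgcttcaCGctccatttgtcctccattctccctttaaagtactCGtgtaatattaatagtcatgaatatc
Tfap2d promoter: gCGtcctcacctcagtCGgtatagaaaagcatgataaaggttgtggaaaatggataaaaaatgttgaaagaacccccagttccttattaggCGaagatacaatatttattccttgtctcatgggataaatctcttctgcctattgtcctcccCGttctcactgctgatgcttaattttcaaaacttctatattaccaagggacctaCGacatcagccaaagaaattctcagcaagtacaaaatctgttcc
Tfap2e promoter: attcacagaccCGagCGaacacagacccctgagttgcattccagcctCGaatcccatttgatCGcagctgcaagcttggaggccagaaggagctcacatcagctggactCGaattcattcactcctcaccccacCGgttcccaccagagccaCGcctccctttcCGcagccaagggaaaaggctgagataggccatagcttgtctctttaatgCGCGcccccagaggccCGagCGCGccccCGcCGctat

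These promoters held 10 CpGs for Tfap2a, 5 for Tfap2b, 5 for Tfap2d and 15 for Tfap2e in the 250 bases. The Tfap2b sequence lies before its more downstream curated TSS (chr1:19212054), because its most upstream TSS could not be matched. The others lie before the most upstream curated TSS of their gene. The next 2 sequences are the 250-bp windows with the most CpGs in the parts of the Tfap2a and Tfap2b domains that lie past the annotated end of each gene, at chr13:40703942-40704191 (minus strand) and chr1:19241341-19241590 (plus strand).
Tfap2a 3′ domain: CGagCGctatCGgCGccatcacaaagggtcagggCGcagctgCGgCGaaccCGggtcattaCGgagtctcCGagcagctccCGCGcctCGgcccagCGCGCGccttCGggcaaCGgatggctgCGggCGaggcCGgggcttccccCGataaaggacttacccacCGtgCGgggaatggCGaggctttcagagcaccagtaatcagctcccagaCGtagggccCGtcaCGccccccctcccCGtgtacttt
Tfap2b 3′ domain: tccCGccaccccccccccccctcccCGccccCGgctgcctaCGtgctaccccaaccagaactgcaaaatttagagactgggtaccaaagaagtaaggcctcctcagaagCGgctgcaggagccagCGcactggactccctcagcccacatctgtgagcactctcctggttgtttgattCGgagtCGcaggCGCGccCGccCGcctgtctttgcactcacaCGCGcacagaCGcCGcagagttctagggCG

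The Tfap2a window held 29 CpGs, with a CpG observed/expected of 1.01, and the Tfap2b window held 17, with 0.70. CpG observed/expected is the number of CpGs divided by the number that the C and G content would give. Both windows lay outside any exon of their gene, and both held more CpGs than each of the 4 promoter sequences above. The windows were chosen for their CpG count, so this comparison is a description.

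All 5 Tfap2 genes had a RING1B, a SUZ12 and a PCGF2 peak at a promoter. Over all genes, a RING1B peak was found at 53.2%, a SUZ12 peak at 24.8%, a PCGF2 peak at 13.5% and all 3 at 13.4% (3508 genes). All 11 curated TSSs of the 5 genes lay inside a peak of each of the 3 lists. They shared 5 promoter peaks per list, so they are not separate results. Over all genes, a curated TSS lay inside a RING1B peak at 48.0%, a SUZ12 peak at 18.9% and a PCGF2 peak at 12.0%. Every gene body therefore overlapped a peak of each list as well, because it contains these TSSs, and this is no separate result. The shares of all genes with a peak in the body were 54.3% for RING1B, 25.3% for SUZ12 and 14.2% for PCGF2. The lists give positions without replicates or heights, so no test was possible and these shares are set beside each other as a description.

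A CpG-rich promoter, with a CpG observed/expected of at least 0.6 and a GC content of at least 50% within 500 bp of a TSS, was present in 3 of 5 Tfap2 genes. These were Tfap2a, Tfap2c and Tfap2e. Among the 11505 genes with such a promoter, 88.8% had RING1B, 40.4% SUZ12, 23.0% PCGF2 and 23.0% all 3 factors, and among the 14675 genes without one the share with all 3 was 5.90%. Tfap2b and Tfap2d belonged to the latter group. The TSSs of Tfap2d had a CpG observed/expected from 0.55 to 0.67, and those with the higher values missed the definition on a GC content of 42.1% and 42.5%. The Tfap2b TSSs had 0.67 at 39.7% GC and 0.33 at 48.5% GC. Over all 11 Tfap2 TSSs, CpG observed/expected ran from 0.33 at Tfap2b to 1.05 at the most downstream start of Tfap2a, and the same 3 factors were found at both ends of this range.

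Tfap2a, a regulator of neural crest, face and eye development, had the widest domain of the family. The gene lies on the minus strand at chr13:40713802-40738238 and spans 24.4 kb. A single RING1B peak, chr13:40699585-40747011, began 12.1 kb upstream of the most upstream curated TSS, ran over all 8 exons and ended 35.3 kb downstream of that TSS. From the start of the RefSeq gene span, which lies before that TSS, the peak reached 8.77 kb upstream and 38.7 kb downstream. Its 47427 bp made it number 7 by width among the 18643 RING1B peaks. It covered 100% of the gene body, and 13.7% to 71.1% of the body was covered at the other 4 genes.

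SUZ12 and PCGF2 were each called as 3 peaks inside that 1 RING1B peak. The SUZ12 peaks had widths of 23738 bp over the promoter, 3233 bp over exons 6 and 7, and 17075 bp from before exon 8 to 34.2 kb past the TSS. The PCGF2 peaks had widths of 23158 bp, 1291 bp and 16978 bp in the same order, but the middle one covered exon 7 and not exon 6. Splits of this kind were rare over RING1B peaks of all widths. Of the 7074 that held a SUZ12 peak, 11 held 3 or more of them (0.155%), and 12 of the 3568 with a PCGF2 peak held 3 or more (0.336%). A wide peak has more room for several pieces, and the share among RING1B peaks as wide as that of Tfap2a was not counted.

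The breaks were short. SUZ12 was interrupted for 1165 bp from within exon 5 and for 950 bp in the intron before exon 8, and PCGF2 for 2499 bp over exon 6 and for 1165 bp in the intron before exon 8. Near exon 8 the breaks in both lists overlapped, and CpG observed/expected there was 0.08 for SUZ12 and 0.11 for PCGF2. The PCGF2 break over exon 6 had 0.17. The SUZ12 break at exon 5 differed from these, with 0.62 and 51 CpGs, and PCGF2 reached 380 bp into it. The Tfap2a RING1B peak also held the TSS of Gm26688, a RefSeq non-coding locus, at chr13:40727808.

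Tfap2b, needed for kidney, limb and ductus arteriosus development, had 2 separate domains, one at each end of the gene. It lies on the plus strand at chr1:19208908-19238845 and spans 29.9 kb. The promoter domain had a RING1B peak of 16041 bp (chr1:19205651-19221691), a SUZ12 peak of 15473 bp and a PCGF2 peak of 11281 bp. The domain over the gene end had a RING1B peak of 14322 bp (chr1:19230342-19244663), a SUZ12 peak of 15546 bp and a PCGF2 peak of 11977 bp. The 2 domains were close in width in every list, and SUZ12 and PCGF2 were slightly wider at the gene end than at the promoter.

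The RING1B peaks of Tfap2b were 8650 bp apart, over exons 4 and 5, where CpG observed/expected was 0.23. The downstream peaks took in exons 6 to 8 and ran past the annotated end of the gene by 5.82 kb for RING1B. Among 2477 genes of at least 10 kb with all 3 factors at a promoter, a separate peak within 2500 bp of the gene end was found in all 3 lists at 79 genes (3.19%), and Tfap2b was the 1 Tfap2 gene among them. Tfap2a reached its gene end by another arrangement, with a RING1B promoter peak that extended that far, as at 70 of the 2477 genes (2.83%), while its most downstream SUZ12 and PCGF2 peaks counted as separate. A separate gene-end peak was thus found at 1 Tfap2 gene for RING1B (13.0% of the 2477 genes), at 2 for SUZ12 (7.02%) and at 2 for PCGF2 (3.75%). The gene-end comparison was chosen after the positions had been seen.

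Tfap2c, a regulator of trophectoderm and primordial germ cells, had the narrowest RING1B domain, and it was the only member whose domain reached farther upstream than downstream of its most upstream curated TSS. The gene lies on the plus strand at chr2:172545678-172558622 and spans 12.9 kb. The RING1B peak was 9549 bp wide (chr2:172543966-172553514), the SUZ12 peak 8554 bp and the PCGF2 peak 7611 bp. RING1B extended 5.63 kb upstream and 3.92 kb downstream of the curated TSS. From the start of the RefSeq gene span, which lies before that TSS, the direction turned, with 1.71 kb upstream and 7.84 kb downstream. From the curated TSS, downstream reach was the greater at 4 of 5 Tfap2 genes, and at 71.7% of 3361 genes with all 3 factors whose most upstream TSS lay in a RING1B peak. Because Tfap2c is short, its peak still covered 60.5% of the gene body.

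Tfap2d, expressed in the developing midbrain and retina, is the longest member, at 70.9 kb on the plus strand of chr1:19103022-19173948. Its 3 peaks stayed at the 5′ end, with a RING1B peak of 12728 bp (chr1:19099989-19112716), a SUZ12 peak of 15728 bp and a PCGF2 peak of 10484 bp. All 3 covered exons 1 to 3 and none of the other 5 exons, and RING1B covered 13.7% of the gene body. SUZ12 was wider than RING1B here and passed its edges by 1760 bp upstream and 1240 bp downstream. The TSS of the non-coding gene Gm15825, at chr1:19104840, lay inside all 3 peaks.

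Tfap2e, expressed in olfactory and vomeronasal neurons, had the narrowest PCGF2 domain. It lies on the minus strand at chr4:126716003-126736269 and spans 20.3 kb. The RING1B peak was 10837 bp wide (chr4:126729794-126740630), the SUZ12 peak 10538 bp and the PCGF2 peak 5420 bp, and all covered exons 1 to 3. PCGF2 started 1.08 kb upstream of the TSS, compared with 4.36 kb for RING1B and 3.90 kb for SUZ12. A separate RING1B peak of 349 bp lay 0.720 kb farther upstream.

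The widths of the promoter peaks were next set against the 3508 genes with all 3 factors, taking the widest promoter peak of each gene. The median of these genes was 4918 bp for RING1B, 5394 bp for SUZ12 and 2914 bp for PCGF2, and every Tfap2 gene was above the median in every list. For RING1B, Tfap2a was 9.64 times the median, Tfap2b 3.26 times, Tfap2d 2.59 times, Tfap2e 2.20 times and Tfap2c 1.94 times. At least as wide a RING1B peak was found at 1.94% of these genes for Tfap2a and at 17.6% for Tfap2c. Genes that share a peak were each counted, so the 1.94% stands for 68 genes although the Tfap2a peak was number 7 by width. For PCGF2 the order changed, since Tfap2c (2.61 times) lay above Tfap2e (1.86 times). For SUZ12, Tfap2a was 4.40 times the median, Tfap2d (2.92 times) lay above Tfap2b (2.87 times), and Tfap2c, the lowest, was 1.59 times. The Tfap2a widths in SUZ12 and PCGF2 depend on its split, and merging peaks less than 3000 bp apart took them to 46161 bp and 45091 bp.

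**Figure D1:**
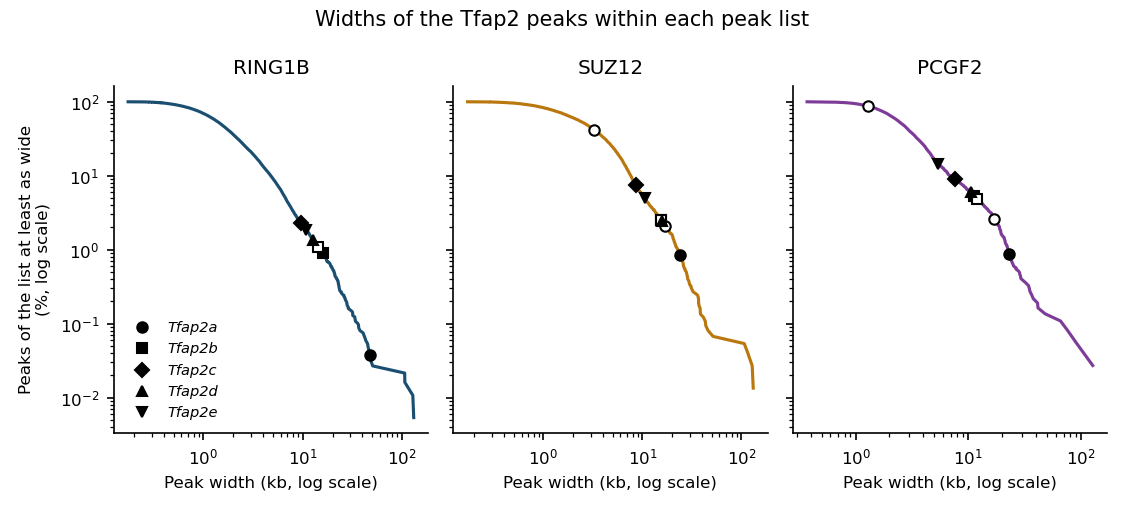
Peak width in kb (x axis, log scale) against the percentage of peaks in the same list that are at least as wide (y axis, log scale), with 1 curve for each list. Filled symbols are peaks at Tfap2 promoters and open symbols are other peaks in or next to the same genes. All filled symbols lie in the widest 14.5% of their list, and the Tfap2a RING1B peak is number 7 of 18643.

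Widths are not comparable between lists as amounts of protein, because the peaks were called and filtered by different rules. Edges can still be compared by position. All 8 PCGF2 peaks of the Tfap2 genes lay wholly inside a RING1B peak, as did 93.8% of all 3680 PCGF2 peaks. For SUZ12 it was 4 of 8, against 29.2% of all 7438 SUZ12 peaks, but 3 of the 4 were the pieces of the Tfap2a domain, and counted by RING1B domain it was 2 of 6. PCGF2 covered from 50.0% of the RING1B peak at Tfap2e to 87.3% at Tfap2a. The median over the 3540 RING1B peaks that held both other factors was 62.4%, so Tfap2e was the 1 member below it. SUZ12 covered 89.6% to 100% of each Tfap2 RING1B peak, beside a median of 99.0%.

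The side on which PCGF2 stopped short of RING1B differed between genes. At the Tfap2b promoter the PCGF2 peak began 78 bp inside the RING1B peak but ended 4682 bp before it. At Tfap2d the reverse was found, with 2150 bp uncovered upstream and 94 bp downstream. Tfap2e had both margins uncovered, 3281 bp upstream and 2136 bp downstream, and Tfap2c had 738 bp and 1200 bp.

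CpG content followed the part of each domain that all 3 factors shared. In the bases covered by all 3 lists, CpG observed/expected was 0.47 at Tfap2a, 0.39 at Tfap2b, 0.63 at Tfap2c, 0.41 at Tfap2d and 0.56 at Tfap2e. In the 2 kb on either side, outside all peaks, it was 0.19, 0.15, 0.30, 0.27 and 0.21 in the same order. The shared part was the higher at 5 of 5 genes, as at 99.7% of 3529 RING1B peaks with both other factors, where the medians were 0.60 and 0.19. Only Tfap2c was above the median for the shared part. Where RING1B and SUZ12 were present without PCGF2, CpG observed/expected lay between 0.09 (Tfap2d) and 0.31 (Tfap2c), below the shared part of the same gene in all 5. At Tfap2a (0.17) and Tfap2d these bases were also lower than the flanks. They were few at some genes, as at Tfap2c (948 bp). How often bases without PCGF2 lie below the shared part at other RING1B peaks was not counted. The values thus describe these 5 genes only.

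**Figure D2:**
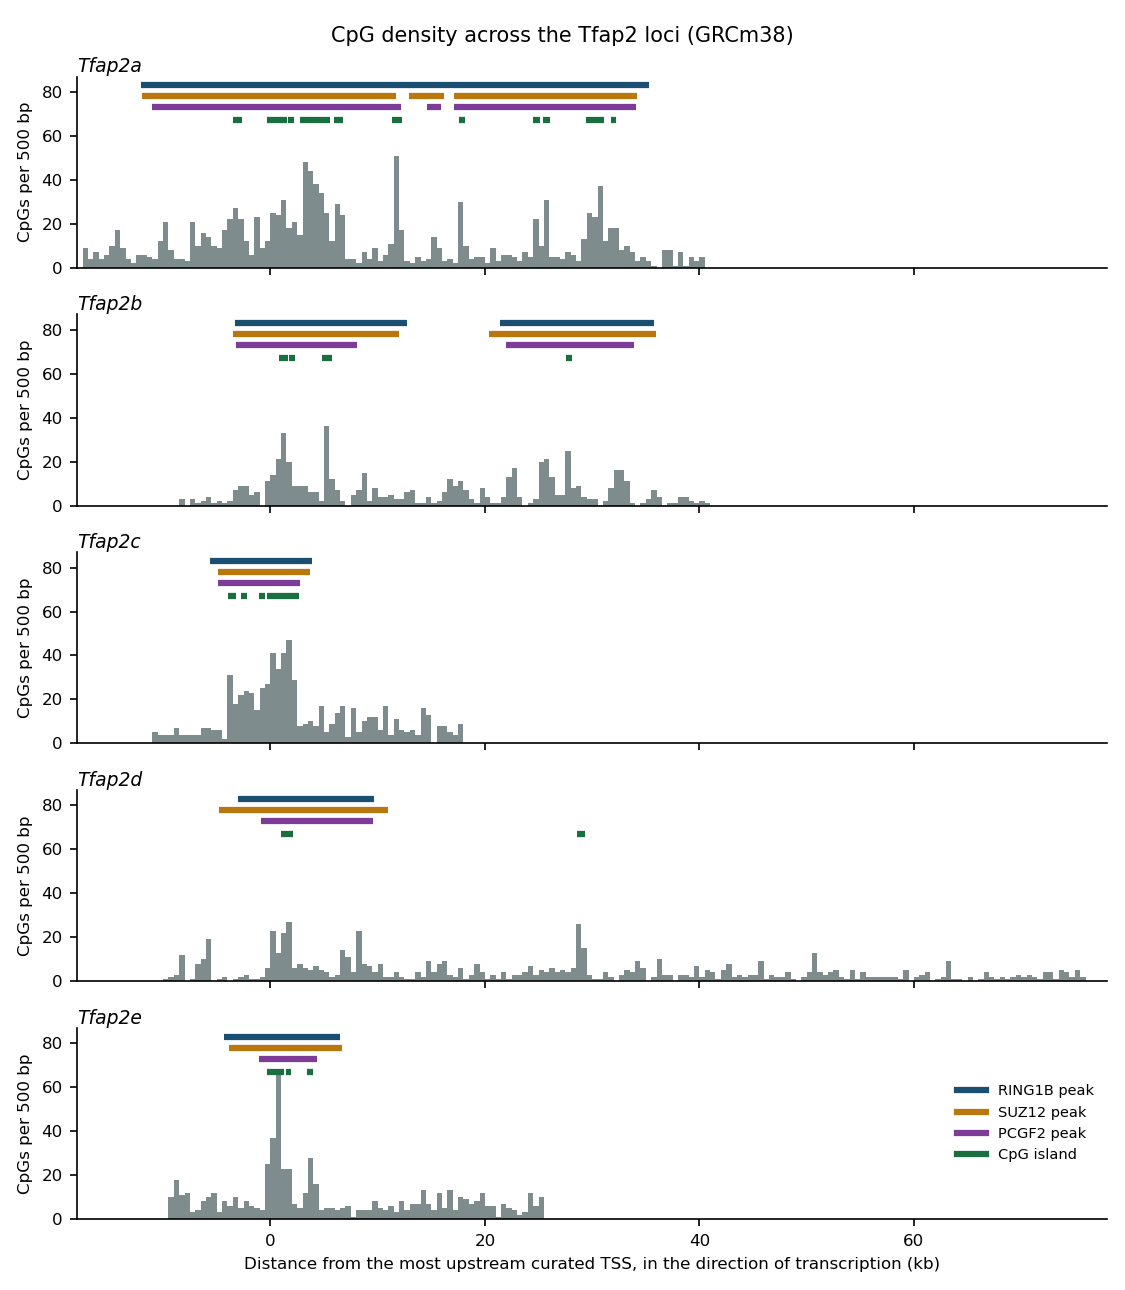
Number of CpGs in each 500-bp bin (y axis) against distance from the most upstream curated TSS in kb (x axis) for the 5 loci, with peaks and CpG islands of at least 500 bp drawn as horizontal lines. CpG islands lie under the peaks from 3.46 kb upstream to 32.2 kb downstream of the Tfap2a TSS and under both Tfap2b domains, and the Tfap2d island 28.6 kb downstream lies under no peak (the island 16.5 kb upstream of Tfap2e is not drawn).

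CpG islands, found here as merged 200-bp windows of at least 50% GC and a CpG observed/expected of at least 0.6 over 500 bp or more, were then counted within 20 kb of the Tfap2 peaks. Of 26 islands, 25 overlapped a RING1B peak, 25 a SUZ12 peak and 24 a PCGF2 peak by at least 1 bp, and 25, 23 and 23 lay wholly inside one. The search area was set by the Tfap2 peaks themselves, which favours overlap. No share over all islands of the genome was counted, so these numbers are a description. Tfap2a had 12 of the 26 islands, spread from 3.46 kb upstream to 32.2 kb downstream of its most upstream curated TSS. The first of them overlapped the start of the RefSeq gene span, which lies before that TSS. All 12 overlapped peaks of the 3 lists. The island at exon 5 was the 1 of these not wholly inside them, with 45.7% of its 870 bp in a SUZ12 peak and 89.4% in a PCGF2 peak. Tfap2b had 3 islands in its promoter domain and 1 inside its final exon, under the downstream domain. The longest island, of 2903 bp, began at the Tfap2c promoter. Islands made up 49.5% of the Tfap2c RING1B peak, 25.0% of that of Tfap2e, 24.6% of that of Tfap2a, 9.69% of those of Tfap2b and 8.17% of that of Tfap2d.

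Of the 2 islands without a PCGF2 peak, one lay 16.5 kb upstream of Tfap2e, wholly inside another RING1B peak and with 21.7% of its 1394 bp in a SUZ12 peak of 303 bp. The other, the only one without any peak, was intronic. This island lay at chr1:19131630-19132346 within Tfap2d, 28.6 kb downstream of the TSS, and had 39 CpGs, a CpG observed/expected of 0.62 and a GC content of 60.0%. Of its 717 bp, 96.0% were repeat-masked in the reference. The promoter island of the same gene, 1040 bp long, was inside all 3 peaks. Methylation of either island was not measured here.

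Tfap2d and Tfap2b are neighbours on chromosome 1 in the same orientation, with 35.0 kb between the genes. No peak of any list lay between their domains, and the RING1B domains were 92.9 kb apart. The next RING1B peak was 1038 kb upstream of the Tfap2d domain and 1575 kb downstream of the last Tfap2b domain. The 2.76 Mb between those outer peaks (chr1:18061587-20819644) held 14 genes with a curated TSS, Tfap2d, Tfap2b and Gm15825 among them. The only peaks there were the 3 RING1B, 3 SUZ12 and 3 PCGF2 peaks of Tfap2d and Tfap2b. Of 3540 RING1B peaks with both other factors, 8.95% had a gap of at least 1 Mb on one side, and the median gap was 66.0 kb. Tfap2c had closer neighbours, with RING1B peaks 20.4 kb upstream and 13.9 kb downstream, but its nearest SUZ12 peaks were 198 kb and 173 kb away.

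AP-2 factors are known to bind the palindrome GCCNNNGGC. This motif, which reads the same on both strands, was found in 0 of the 7 Tfap2 promoters in the RefSeq table (250 bases before to 50 after a TSS), compared with 16.6% of all 32851 promoters and 28.7% of those of genes with all 3 factors. Within 500 bp of the TSSs it was found at 3 of 11 Tfap2 TSSs (27.3%) and at 43.8% of all TSSs. Several of these windows overlap each other. Across whole RING1B peaks the motif occurred 0.42 times per kb at Tfap2a, 0.33 at Tfap2b, 0.63 at Tfap2c, 0.47 at Tfap2d and 0.46 at Tfap2e, beside 0.58 over all RING1B peaks with both other factors. These are matches to letters and not binding sites.

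Context genes were described from 6 lists, of AP-2 cofactors, textbook AP-2 targets, and neural crest and placode, trophoblast, primordial germ cell and epidermal genes. Whether the lineage genes work with AP-2 factors was not tested. Only promoters were considered, since peaks in their gene bodies were not counted. Over all genes, 53.2% had RING1B, 24.8% SUZ12 and 13.4% all 3 factors. Over genes with a CpG-rich promoter the shares were 88.8%, 40.4% and 23.0%. Of 18 neural crest and placode genes, 17 had RING1B (94.4%), 16 SUZ12 (88.9%) and 15 all 3 factors (83.3%). Among these 15 the widest RING1B promoter peaks were at Zic1 (48321 bp), at the adjacent genes Dlx5 and Dlx6 (37823 bp, 1 shared peak) and at Pax3 (36873 bp), and the Tfap2a peak of 47427 bp lay between that of Zic1 and these. Sox5, which acts in neural crest and cartilage, had no promoter peak in any list.

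Of 15 trophoblast genes, 11 had all 3 factors (73.3%, beside 13.4% of all genes). Among these 11 the widest RING1B peaks were at Gata3 (28746 bp), Cdx2 (23026 bp), Gata2 (18606 bp) and Hand1 (18040 bp), all transcription factors of the trophoblast lineage. Of the 11, 6 had a wider RING1B peak than the 9549 bp of Tfap2c, which acts in the same lineage, and 5 a narrower one. Elf5 and Gcm1, trophoblast regulators as well, had no promoter peak. Of 8 primordial germ cell genes, 5 had all 3 (62.5%, beside 13.4% of all genes). These were led by Sox17 (14083 bp), T (10423 bp), Prdm14 (5919 bp) and Kit (3244 bp), and Nanos3 had no promoter peak.

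Among 9 epidermal genes, 5 had RING1B (55.6%), near the 53.2% of all genes. All 3 factors were found at 3 of the 9 (33.3%, beside 13.4% of all genes), namely Ovol1 (14061 bp), Grhl2 (10091 bp) and Klf4 (4276 bp). No promoter peak was found at 4 of the 9, among them Trp63 and Krt5, a master regulator and a keratin of basal keratinocytes. Of 10 textbook AP-2 target genes, 10 had RING1B, beside 53.2% of all genes and 88.8% of genes with a CpG-rich promoter. All 3 factors were found at 5 of them (50.0%, beside 13.4%). Among those 5 the widest RING1B peaks were at Cyp1b1 (9917 bp), Igfbp5 (9714 bp), Erbb2 (5823 bp) and Kit (3244 bp), which is in 2 lists. Of 12 AP-2 cofactors, 11 had RING1B (91.7%), near the 88.8% of genes with a CpG-rich promoter. Of the 12, 5 had SUZ12 (41.7%), near the 40.4% of genes with a CpG-rich promoter, beside 24.8% of all genes. All 3 factors were found at 4 (33.3%), beside 23.0% of genes with a CpG-rich promoter and 13.4% of all genes. The 4 were Kctd1 (8126 bp), a repressor of AP-2 activity, Cited1 (6893 bp), Kctd15 (3974 bp) and Cited4 (3749 bp), and the tumour suppressor Wwox had no promoter peak. The Tfap2 genes were the 1 group of these in which every gene had all 3 factors, in a group of 5, and no test of a difference between lists was made.

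**Figure D3:**
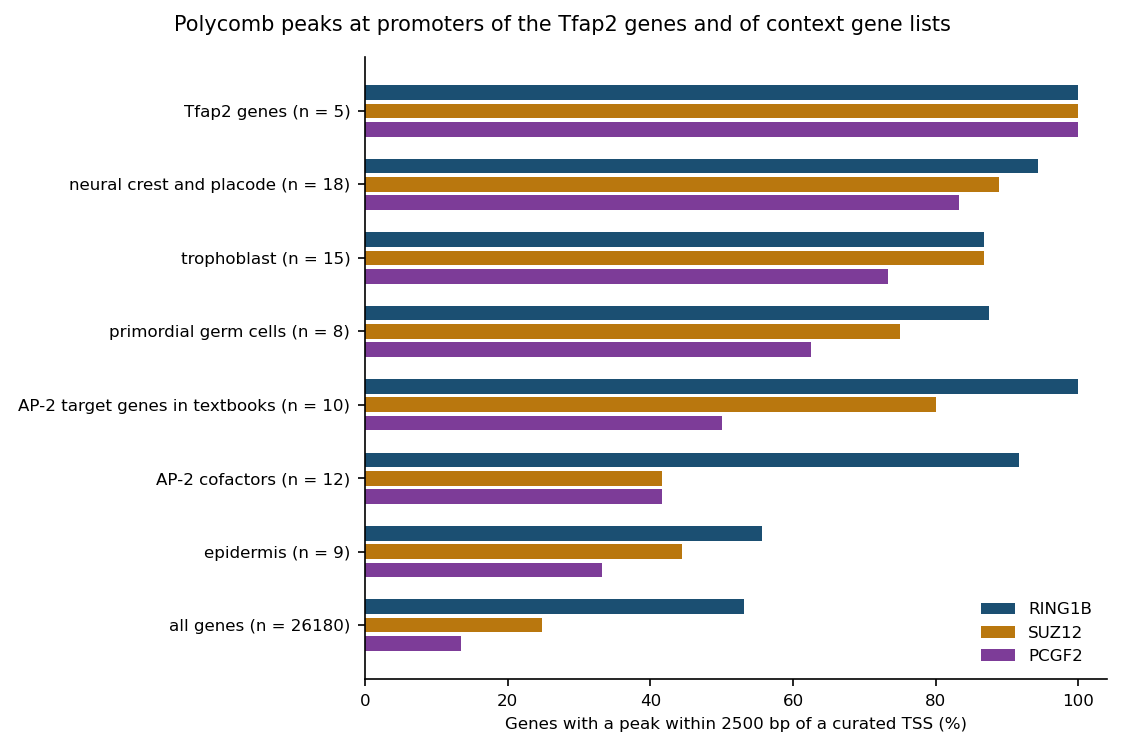
Percentage of genes with a RING1B, SUZ12 or PCGF2 peak within 2500 bp of a curated TSS (x axis, from 0) for the Tfap2 genes, the 6 context lists and all genes. The bars for the Tfap2 genes are at 100, and the bars for all genes are at 53.2, 24.8 and 13.5.

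The genes with promoter domains most like those of each member were found as the nearest in log2 width over the 3 lists. For Tfap2c these were Neurog3 (distance 0.074; 9789, 8690 and 7940 bp for RING1B, SUZ12 and PCGF2), Pdgfa (0.097) and Nkx2-4 (0.105). For Tfap2d they were Nr4a3 (0.080), Gm10421 (0.125) and Bahd1 (0.135). For Tfap2b they were Sspo and Zfp467, which share peaks (0.098), and Foxe1 (0.101). For Tfap2e they were Cgas and Mto1, which also share peaks (0.085), and Grm4 (0.096). Tfap2a had no match as close, its nearest genes being Wnt10a (0.455) and the protocadherins Pcdhga10 and Pcdhga11 (0.538, shared peaks). Its SUZ12 and PCGF2 widths were those of the promoter pieces (23738 and 23158 bp), so these matches depend on the split. Few RING1B peaks were as wide, so few genes could be near. Likeness in width over 3 lists says nothing about control of these genes.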

How the data were processed

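The deposited files hold a start and an end per peak, with no score, fold, p-value or count, so the unit is a position and depth is not given by the lists. Per the methods, the authors mapped read pairs to a joint mm10 and spike-in genome (Bowtie 2), discarded duplicates (Sambamba) and used MACS2 in broad mode with Input as control. They kept RING1B and SUZ12 peaks found in merged replicates of both untreated lines, dropped RING1B peaks without a significant loss on OHT in PRC1CKO cells, and kept PCGF2 peaks found in all replicates of untreated PRC1CPM cells. Merging of nearby signal into broad peaks affects widths, and the rules differ between lists. Deposited lists held 18643 RING1B, 7438 SUZ12 and 3680 PCGF2 peaks, with median widths of 1495, 2666 and 2589 bp.

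Coordinates are from base 1. RefSeq of GRCm38.p6, the assembly of mm10, gave curated TSSs, exons and sequence, and 0 peaks ran past a chromosome end. An overlap was at least 1 bp. Python 3.11.15 with pandas 2.3.3, NumPy 2.4.6 and pysam 0.24.0 was used, and overlaps were tested on simulated data. Named genes were all 5 members, up to 4 genes per context list with all 3 factors and the widest RING1B peaks, up to 2 with no promoter peak, the 3 nearest in width, and genes starting inside a member's peak. Members and lists were chosen with earlier results of these data known. Alternatives were other promoter windows, TSS sets, overlaps, width limits, merging, flanks and gene-end windows. Protein sequences were not used here. Signal in treated cells was not analysed here.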

Additional observations from a re-analysis of the deposited data

How the results depend on the processing

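The lists carry no replicate, height or depth, so a weak peak cannot be told from a strong one and no error between samples could be given. No replicate could be left out. No paired analysis was possible because peak positions come without replicate numbers and no result comes from a test. Under all 11 alternative promoter windows, TSS sets, overlaps and width limits, 5 of 5 Tfap2 genes kept a peak of each list at a promoter. Most of these alternatives could not change that count, because every curated Tfap2 TSS lay inside promoter peaks of at least 5420 bp. The share of all genes with all 3 factors ran from 7.51% (at least 50% of the window covered) to 14.0% (5000 bp on either side). Merging peaks less than 3000 bp apart turned the 3 SUZ12 peaks of Tfap2a into 1 of 46161 bp and its 3 PCGF2 peaks into 1 of 45091 bp, and merging at 1000 bp or 3000 bp widened the Tfap2e RING1B peak to 11906 bp, so the split of Tfap2a rests on short breaks. With flanks of 5 kb the shared part was still the higher in CpG content at 5 of 5 genes. At gene ends, 1 Tfap2 gene had a separate peak in all 3 lists with the end base alone (0.767% of genes) and with 5000 bp on either side (4.20%), 2 windows chosen after seeing the data. The comparison of protein sequences between members was not run.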
